A study of Mus musculus with 8 samples.

Results

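The Hox genes of the 4 mouse clusters were examined in pancreas, in KPC-OG mice against KPC mice. Members were all genes whose symbol is Hox followed by a cluster letter (a to d) and a number, which gave 39 genes among the 29621 genes matched in the series: 11 in HoxA on chromosome 6, 10 in HoxB on chromosome 11, 9 in HoxC on chromosome 15 and 9 in HoxD on chromosome 2. The genes were selected on their read counts in the same KPC-OG against KPC contrast that is described here, so the values of members are given as a description, with no test.

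KPC-OG mice carried p48-Cre, an oncogenic allele that Cre switches on, Trp53 fl/fl and R26tm1(LSL-OG). KPC mice carried p48-Cre, the same oncogenic allele and Trp53 fl/fl, without the R26 allele. p48-Cre is expressed from the Ptf1a locus, which is active in pancreatic progenitors and acinar cells and in parts of the developing nervous system, and not in the stroma of the pancreas. All mice were C57BL/6 at postnatal day 42 (6 weeks), and total RNA of perfused, flash-frozen whole pancreas was depleted of ribosomal RNA and sequenced in 4 libraries per group. The labels do not say that each library came from a separate mouse, so the spread between libraries may be in part technical.

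Hox genes encode homeodomain transcription factors that give cells their position along the body axis. Each cluster is read in order, from group 1, expressed early and toward the head, to group 13, expressed late and toward the tail and limb tips, and genes with the same number in different clusters are paralogs. Adult organs keep part of this pattern, mostly in mesenchymal cells such as fibroblasts, while Polycomb proteins hold silent members repressed and Trithorax proteins and retinoic acid favour their expression.

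Libraries held between 13671606 and 18292115 estimated reads in KPC-OG and between 7373286 and 11292570 in KPC. Reads assigned to Lars2, the mitochondrial leucyl-tRNA synthetase, made up 3.73% to 7.11% of gene-level reads in KPC-OG and 20.8% to 29.95% in KPC. TMM scaling, which sets libraries level on the bulk of their genes, gave factors of 1.14 to 2.28 in KPC-OG and 0.483 to 0.653 in KPC, so that 1 read was worth 0.0259 to 0.0655 CPM (reads scaled to a common library size) in KPC-OG and 0.169 to 0.265 CPM in KPC. Each group difference is relative to that scaling: with library sizes alone the median gene moves up by 1.74 on the log2 scale, and with TPM by 1.35 to 1.58, depending on the pseudocount. Acinar markers were present in every library, with a summed level of 46802 to 162911 CPM in KPC-OG and 295447 to 464020 CPM in KPC, and edgeR called 6 of 8 lower in KPC-OG. In whole tissue, fewer cells of a type and less RNA per cell cannot be told apart.

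4 stretches of coding sequence are shown because 3 of the members that were far lower in KPC-OG, Hoxb3, Hoxd11 and Hoxa13, hold an uninterrupted run of G and C long enough to contain a whole 20-base k-mer of the authors' index, and because Hoxd8, which holds one too, was not lower. Hoxa11, also far lower, has no such run in its most-read transcript. Hoxa9, Hoxb4, Hoxb8 and Hoxc13 also have one. Hoxb4 was lower by less (log2 fold change −0.88 ± 0.24, SE). Hoxb8 had a pooled 0.249 CPM in KPC-OG and 0.494 CPM in KPC, on 10 KPC reads and with overlapping groups. In TPM its means had the other order, 0.374 in KPC-OG and 0.262 in KPC. Hoxa9 had a pooled 0.116 CPM in KPC-OG and 0.0494 CPM in KPC, and Hoxc13 had 0.0499 and 0 CPM. With 1 and 0 reads over all KPC libraries, Hoxa9 and Hoxc13 had too few to show a direction. Sequences are from GENCODE M21 transcripts on GRCm38, on the transcript's strand with 20 bases on each side, and the capitals mark the run. The run lies within a single exon in Hoxb3-201 (chr11:96345589-96345656, + strand), Hoxd11-202 (chr2:74682616-74682681, + strand), Hoxa13-201 (chr6:52260389-52260456, − strand) and Hoxd8-201 (chr2:74705569-74705635, + strand). This feature was looked for after the values had been seen.
Hoxb3-201: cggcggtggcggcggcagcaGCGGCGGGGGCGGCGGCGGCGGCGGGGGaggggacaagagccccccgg
Hoxd11-202: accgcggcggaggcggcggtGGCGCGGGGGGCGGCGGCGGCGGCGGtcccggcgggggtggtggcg
Hoxa13-201: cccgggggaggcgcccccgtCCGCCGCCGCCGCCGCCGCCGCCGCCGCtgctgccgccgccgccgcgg
Hoxd8-201: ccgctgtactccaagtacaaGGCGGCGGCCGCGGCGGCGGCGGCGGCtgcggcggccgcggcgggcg
The runs are 28, 26, 28 and 27 bases long, in the order shown, and the longest uninterrupted GGC or GCC repeats of these transcripts are 15, 15, 27 and 15 bases. The 20-base k-mers within them also occur in transcripts of other genes, 22 for Hoxb3, 10 for Hoxd11, 83 for Hoxa13 and 13 for Hoxd8. None of the 87 member transcripts shares a 20-base k-mer with Lars2 on either strand.

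Most Hox genes were near the limit of detection. After rounding, 5 of the 39 members (Hoxb13, Hoxc12, Hoxd1, Hoxd12 and Hoxd13) had no read in any library and 34 had at least 1. Only 8 passed the filter on low counts that was applied to all genes: Hoxa5 in HoxA, Hoxb2, Hoxb3, Hoxb4, Hoxb6 and Hoxb7 in HoxB, Hoxd8 and Hoxd11 in HoxD, and none in HoxC. A library showed 28 to 31 members with a read in KPC-OG and 16 to 25 in KPC. After thinning every library to 1 effective depth the numbers were 16 to 23 in KPC-OG and 15 to 22 in KPC, so the groups overlapped.

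**Figure D1:**
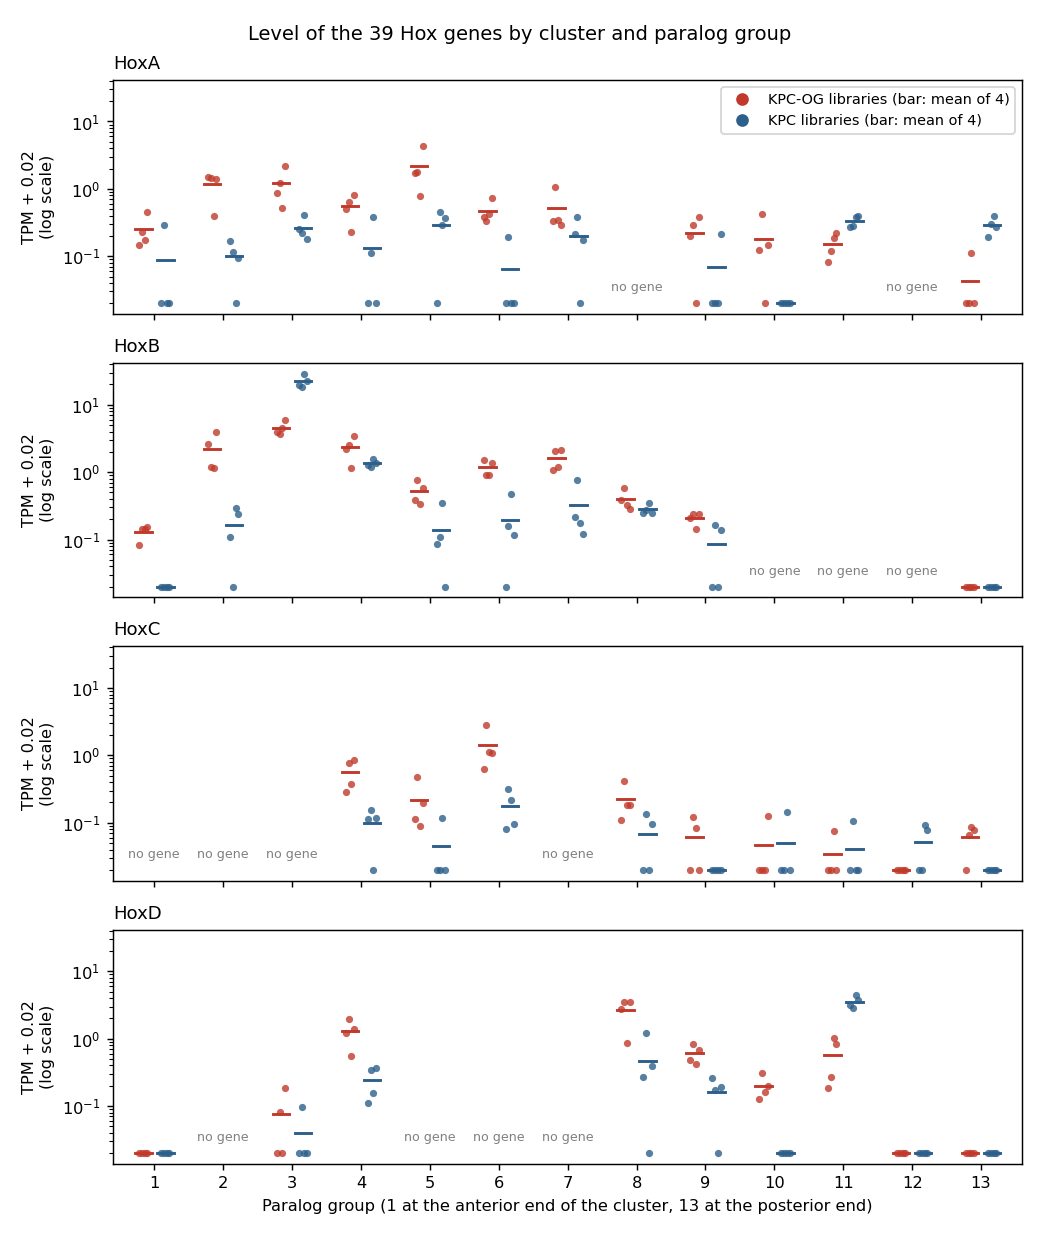
Level of each of the 39 Hox genes, in TPM (abundance per length, scaled within a library) plus 0.02 on a log axis, against its paralog group, with 1 panel per cluster. Points are single libraries, KPC-OG left of KPC, bars are means of 4 libraries, and the lowest points are libraries without the gene. Hoxb3 and Hoxd11 stand above their neighbours in KPC, while the means of groups 5 to 8 lie higher in KPC-OG in every cluster on this scale.

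Per length, Hoxb3 was the highest Hox gene in both groups. On the TPM scale (abundance per length, made by the authors per library) Hoxb3 averaged 4.48 ± 1.02 TPM in KPC-OG and 22.3 ± 4.70 TPM in KPC (SD, n = 4 each). In KPC-OG it was followed by Hoxd8 at 2.61 ± 1.23 TPM, Hoxb4 at 2.31 ± 0.954 TPM, Hoxb2 at 2.21 ± 1.32 TPM and Hoxa5 at 2.13 ± 1.54 TPM, 4 genes whose levels did not differ beyond their spread. In KPC it was followed by Hoxd11 at 3.53 ± 0.671 TPM and Hoxb4 at 1.32 ± 0.163 TPM, which were separate from each other and from Hoxb3 in every library. Next by mean, Hoxd8 averaged 0.451 ± 0.513 TPM in KPC and overlapped with the members ranked after it. It also overlapped with Hoxb4, at 1.19 against 1.16 TPM in KPC library 2. TPM values sum to the same total in each library, and Lars2 takes a larger part of the reads in KPC.

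The largest difference in CPM was in Hoxb3, a group 3 gene that patterns the hindbrain and neck and is used in blood progenitors. Hoxb3 (ENSMUSG00000048763, chr11:96323326-96347930, + strand) had 103, 95, 89 and 130 reads in KPC-OG libraries 1 to 4, against 291, 195, 248 and 318 reads in KPC libraries 1 to 4. Scaled, this was 3.14, 2.46, 5.83 and 3.87 CPM in KPC-OG, against 55.6, 36.6, 65.8 and 53.7 CPM in KPC. Every KPC library lay above every KPC-OG library, and the fitted log2 fold change was −3.82 ± 0.28 (SE). Hoxb3 made up 12.1% to 27.5% of all Hox reads in KPC-OG and 67.9% to 78.0% in KPC.

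By the authors' estimation, the difference in Hoxb3 lay in a single annotated transcript. Both main transcripts are protein coding and hold the G and C run shown above, but Hoxb3-201 is 1890 bases long and Hoxb3-202 is 3190 bases long. Hoxb3-201 was assigned 37.9, 44.2, 50.8 and 44.6 estimated reads in KPC-OG, against 288, 190, 248 and 309 in KPC. Hoxb3-202 was assigned 58.3, 46.1, 35.0 and 76.2 estimated reads in KPC-OG, against 2.53, 2.76, 0 and 8.39 in KPC. Scaled, Hoxb3-202 thus ran from 1.20 to 2.29 CPM in KPC-OG and from 0 to 1.42 CPM in KPC, the direction opposite to that of the gene. Hoxb3-201 took 34.4% to 56.8% of the gene's reads in KPC-OG and 97.2% to 100% in KPC.

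**Figure D2:**
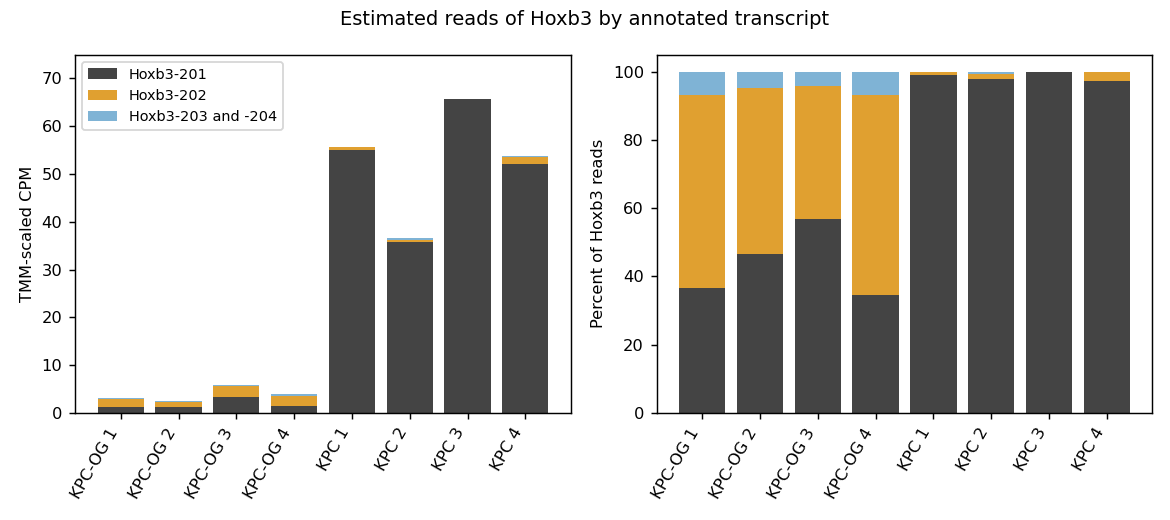
Reads of Hoxb3 by annotated transcript in each library, KPC-OG left of KPC, as stacked bars in TMM-scaled CPM (left) and as a percent of the gene's reads (right). Hoxb3-201 makes up at least 97.2% of the reads in the 4 KPC libraries and at most 56.8% in the 4 KPC-OG libraries.

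Hoxd11 showed the same separation at a lower level. This group 11 gene, known for its part in limb and kidney development (ENSMUSG00000042499, chr2:74679557-74687016, + strand), had 0.0609, 0.104, 0.720 and 0.357 CPM in KPC-OG, against 5.16, 3.38, 5.84 and 5.23 CPM in KPC. The groups did not overlap, and the log2 fold change was −4.14 ± 0.62 (SE). These values rest on 2, 4, 11 and 12 reads in KPC-OG and 27, 18, 22 and 31 reads in KPC, and without KPC-OG library 3 the log2 fold change was −4.75. All KPC reads were assigned to Hoxd11-202, the shorter of the 2 annotated transcripts, which at 68.8% G and C was the richest in these bases among the most-read transcripts of the 34 members.

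2 other posterior genes of HoxA were higher in KPC, on very few reads. Hoxa13, a limb tip and hindgut gene, had 0, 0, 1 and 0 reads in KPC-OG and 3 reads in each KPC library. Hoxa11, which acts in limb, uterus and kidney, had 2, 3, 4 and 5 reads in KPC-OG and 4, 3, 3 and 6 reads in KPC, which after scaling was 0.0609 to 0.262 CPM in KPC-OG and 0.563 to 1.01 CPM in KPC. Neither passed the filter. The groups were separate for both genes in CPM and in TPM, but not in the reads of Hoxa11. The other members of groups 12 and 13 (Hoxb13, Hoxc12, Hoxc13, Hoxd12 and Hoxd13) held no whole read in any KPC library.

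Hoxb4, a group 4 gene used in blood stem cells, had 2.28, 2.23, 1.90 and 2.83 CPM in KPC-OG, against 4.77, 3.19, 4.78 and 4.39 CPM in KPC. The groups were separate on this scale, with a log2 fold change of −0.88 ± 0.24 (SE). On the TPM scale it had 2.17, 2.50, 1.13 and 3.44 TPM in KPC-OG against 1.25, 1.16, 1.53 and 1.36 TPM in KPC, and the libraries overlapped. With library sizes alone its log2 fold change was 0.91, less than the 1.74 by which that scaling moves the median gene. Re-centred on the median gene it was −0.91 with library sizes and −0.85 and −1.02 with TPM, so it was lower relative to the median gene under each scaling.

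Hoxb2, a group 2 hindbrain gene, was the member most clearly higher in KPC-OG. It had 1.83, 0.674, 1.24 and 2.14 CPM in KPC-OG, against 0.191, 0, 0.531 and 0.507 CPM in KPC. The groups did not overlap, and the log2 fold change was 2.28 ± 0.70 (SE), although the KPC values rest on 1, 0, 2 and 3 reads. Hoxb2 and Hoxb3 are neighbours, with Hoxb2 on the anterior side, and differed in opposite directions.

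The remaining tested members, all from paralog groups 5 to 8, were higher on average in KPC-OG, with overlapping groups. Hoxd8, a trunk gene, had 2.86, 3.06, 1.44 and 2.38 CPM in KPC-OG, against 0.955, 2.07, 0 and 1.01 CPM in KPC (log2 fold change 1.21 ± 0.56, SE). Hoxa5, which is known for its part in lung and foregut mesenchyme, had 1.28, 1.14, 0.917 and 2.59 CPM in KPC-OG, against 0, 0.939, 0.531 and 0.844 CPM in KPC (1.34 ± 0.65). For both, a single KPC library reached into the KPC-OG range and 1 KPC library had no read.
Hoxb6 had 0.974, 0.596, 1.05 and 0.774 CPM in KPC-OG, against 0, 0.188, 0.796 and 0.169 CPM in KPC (log2 fold change 1.70 ± 0.72, SE). Hoxb7 had 0.548, 0.907, 0.982 and 0.863 CPM in KPC-OG, against 0.382, 0.939, 0.265 and 0.169 CPM in KPC (0.87 ± 0.56). Both are central genes of HoxB that act in the trunk, and in each the overlap came from 1 KPC library, KPC 3 for Hoxb6 and KPC 2 for Hoxb7. Without that library the log2 fold change was 2.72 for Hoxb6 and 1.58 for Hoxb7.

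**Figure D3:**
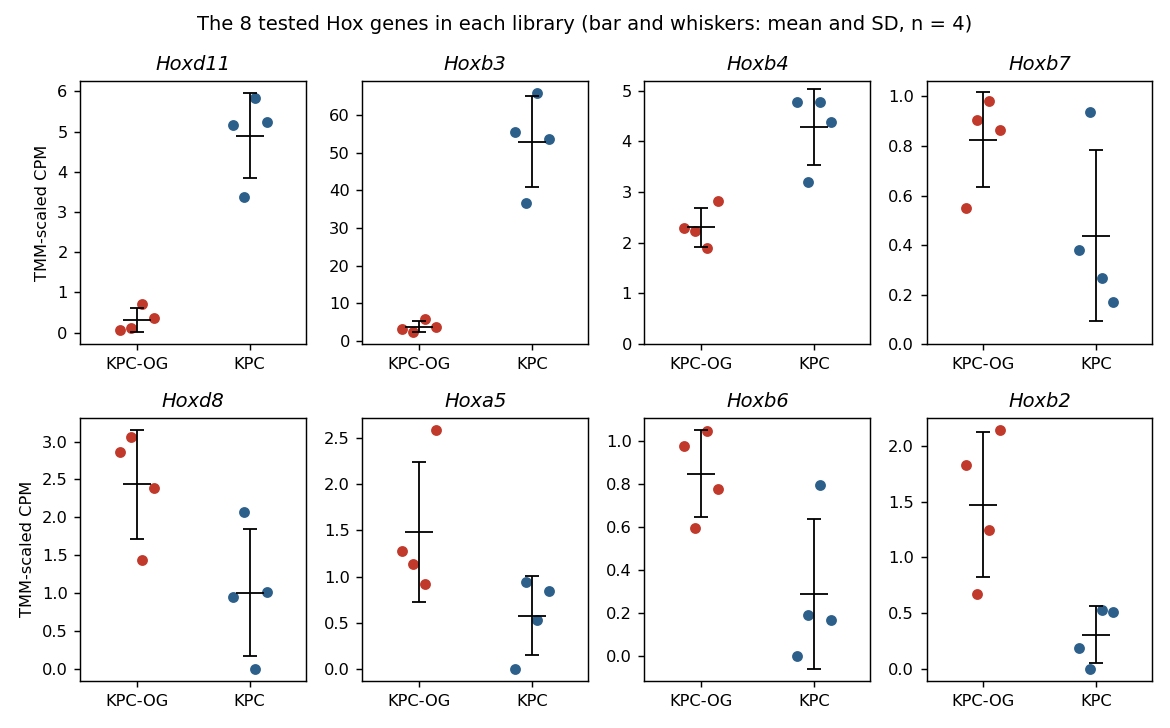
Level of the 8 tested Hox genes in each library, in TMM-scaled CPM, ordered by log2 fold change, with KPC-OG left of KPC. Points are libraries, the bar and whiskers are mean and SD of 4, and the vertical axis differs between panels. Hoxd11, Hoxb3 and Hoxb4 are lower in all 4 KPC-OG libraries and Hoxb2 is higher in all 4.

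The fit over all 14267 tested genes (edgeR quasi-likelihood test, adjusted p under 0.05) called 17.4% of them higher in KPC-OG and 16.6% lower. The calls among the 8 tested members were Hoxb2 higher and Hoxb3, Hoxb4 and Hoxd11 lower. Since the contrast chose the members, nothing is read from these counts. Hoxb2 lost its call without KPC library 1 or 2 or KPC-OG library 1 or 4, and Hoxb4 without KPC-OG library 2. Of the 34 members with a read, 6 were higher in every KPC-OG library than in any KPC library (Hoxa2, Hoxb1, Hoxb2, Hoxc4, Hoxd4 and Hoxd10), beside 15.1% of all genes with a read. For 5 members every KPC-OG library was lower (Hoxa11, Hoxa13, Hoxb3, Hoxb4 and Hoxd11), beside 11.4% of all genes with a read. Within the 8 tested members these were 1 higher, beside 17.6% of all tested genes, and 3 lower, beside 17% of all tested genes.

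The 31 members that did not pass the filter mostly had more pooled signal in KPC-OG. Of 26 with a read, 20 had a higher pooled CPM in KPC-OG and 6 a lower one. Of those higher, 5 had no read in KPC and could only be higher. Over all genes with a read, the fit without the filter had a median log2 fold change of 0.35, beside 0.09 over tested genes. Nothing is therefore read from these counts. In 19 untested members with 3 or fewer reads over all 4 KPC libraries, including those with none anywhere, no fold can be given with any precision. Among all 31 untested members, Hoxa3, a group 3 gene of the pharyngeal region, had the most reads in KPC-OG. It had 0.883, 0.907, 0.720 and 1.43 CPM in KPC-OG, against 0.764, 0.563, 0.796 and 0.507 CPM in KPC, where KPC libraries 1 and 3 lay above the lowest KPC-OG library. Hoxa2, which patterns the second pharyngeal arch, averaged 0.743 ± 0.257 CPM in KPC-OG and 0.185 ± 0.156 CPM in KPC (SD, n = 4 each). Hoxd4 averaged 0.876 ± 0.231 CPM in KPC-OG and 0.424 ± 0.232 CPM in KPC.

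HoxC was the weakest cluster in both groups, with 22 to 90 reads per library in KPC-OG and 1 to 5 in KPC. Its highest members per length were Hoxc6 and Hoxc4, both genes of the neck and thorax. Hoxc6 had 0.244, 0.959, 0.655 and 0.327 CPM in KPC-OG, against 0, 0.376, 0.265 and 0.169 CPM in KPC, with overlap. Hoxc4 had 0.213, 0.518, 0.458 and 0.536 CPM in KPC-OG, against 0.191, 0.188, 0 and 0.169 CPM in KPC, where each KPC value stands for at most 1 read.

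The clusters differed from each other through few genes. The HoxB sum was 8.14 to 12.4 CPM in KPC-OG and 41.9 to 73.8 CPM in KPC, but without Hoxb3 it was 5.68 to 7.41 CPM in KPC-OG and 5.26 to 7.96 CPM in KPC. The HoxD sum was 3.67 to 5.21 CPM in KPC-OG and 6.10 to 7.43 CPM in KPC. Without Hoxd11 the order turned round, with 2.95 to 5.10 CPM in KPC-OG and 0.265 to 3.19 CPM in KPC. HoxA summed to 3.47 to 6.19 CPM in KPC-OG and 2.67 to 4.51 CPM in KPC, and HoxC to 0.670 to 2.33 CPM in KPC-OG and 0.191 to 0.939 CPM in KPC, with overlapping groups in both. On the TPM scale, which raises the median gene as given above, HoxB without Hoxb3, HoxA and HoxC had 5.21 to 12.002, 3.01 to 10.8 and 1.06 to 4.58 TPM in KPC-OG, against 1.83 to 3.09, 0.997 to 2.19 and 0.154 to 0.635 TPM in KPC. The HoxD sum, separate in CPM, overlapped in TPM, with 2.94 to 6.78 TPM in KPC-OG and 3.70 to 4.65 TPM in KPC. Its means were 5.25 and 4.36 TPM, the other direction.

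By position along the clusters, with Hoxb3 and Hoxd11 set aside, the anterior and central groups summed higher in KPC-OG in CPM. The posterior groups summed lower in CPM, through Hoxa11 and Hoxa13. Groups 1 to 3 without Hoxb3 summed to 2.69 to 4.88 CPM in KPC-OG and 1.18 to 1.503 CPM in KPC. Groups 4 to 8 summed to 10.3 to 13.4 CPM in KPC-OG and 7.64 to 10.3 CPM in KPC, the lowest KPC-OG library being level with the highest KPC library. Groups 9 to 13 without Hoxd11 summed to 0.822 to 1.61 CPM in KPC-OG and 1.86 to 2.53 CPM in KPC. That sum rests on 24 to 62 reads per library in KPC-OG and 7 to 15 in KPC. Without Hoxa11 and Hoxa13 as well, the posterior members summed to 1.14 ± 0.324 CPM in KPC-OG and 0.745 ± 0.337 CPM in KPC (SD, n = 4 each), the other direction, with overlapping libraries and 1 to 6 reads per KPC library. The TPM scale, which raises the median gene as given above, also turned round the posterior sum without Hoxd11 alone. It was 1.11 to 2.24 TPM in KPC-OG and 0.664 to 1.16 TPM in KPC, with overlap. The anterior and central sums stayed higher in KPC-OG in TPM.

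Other values moved with these differences, and their part in them was not tested. The 10 fibroblast and stellate cell markers summed to 1660 to 4670 CPM in KPC-OG and 987 to 1317 CPM in KPC, and edgeR called 9 of 10 higher in KPC-OG, none being at 0 in every library of a group. Markers of other cell types were called higher too, 5 of 7 tested for duct and 3 of 3 for gut epithelium. For leukocytes it was 4 of 7, for mesothelium 3 of 5, for endothelium 1 of 7 and for islet cells 1 of 6. Of 6 smooth muscle and pericyte markers, 0 were called. Kidney markers summed to 10.8 to 27.9 CPM in KPC-OG and 53.9 to 72.2 CPM in KPC. Of the 5 listed, 2 were tested (Nphs1 and Umod) and edgeR called both lower, while Slc34a1 and Kap, both abundant in kidney tubules, were at 0 in all libraries and Aqp2 had 2 reads in KPC-OG and 1 in KPC. Lars2 averaged 31881 ± 18146 CPM in KPC-OG and 437712 ± 103602 CPM in KPC (SD, n = 4 each) and was highest in library 3 of each group. In CPM, Hoxb3 and Hoxd11 were also highest in library 3 of each group. Among the 8 tested members, 4 were highest in KPC-OG 3 and 5 in KPC 3 in CPM, a library in which 1 read is worth more CPM than in the others of its group. As a percent of reads Lars2 was highest in KPC-OG 4 (7.11%, against 6.57% in KPC-OG 3). In TPM Hoxb3 was highest in KPC-OG 4 (5.92, against 4.46 TPM in KPC-OG 3), while Hoxd11 stayed highest in KPC-OG 3.

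Base composition also moved with the direction of change across all genes. Sequences were taken from GENCODE M21, and for 10165 tested genes (71.2%) the length was identical to that of the transcript the authors quantified. Among 14257 tested genes with a sequence, 1551 had a most-read transcript with a 20-base k-mer of only G and C. Of these, 28.8% were called lower and 13.2% higher in KPC-OG by edgeR, against 15.2% lower and 17.9% higher among the 12706 genes without one. In genes with a GGC or GCC repeat of at least 15 bases, 533 in all, 38.5% were lower and 9.01% higher, with a median log2 fold change of −0.30. Of the 46 genes called lower with a log2 fold change below −3, 29 (63.0%) held such a k-mer, compared with 10.9% of all tested genes. Of the 8 tested members, Hoxb3, Hoxb4, Hoxd8 and Hoxd11 held one, and nothing is read from this about base composition, since the contrast chose the members.

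**Figure D4:**
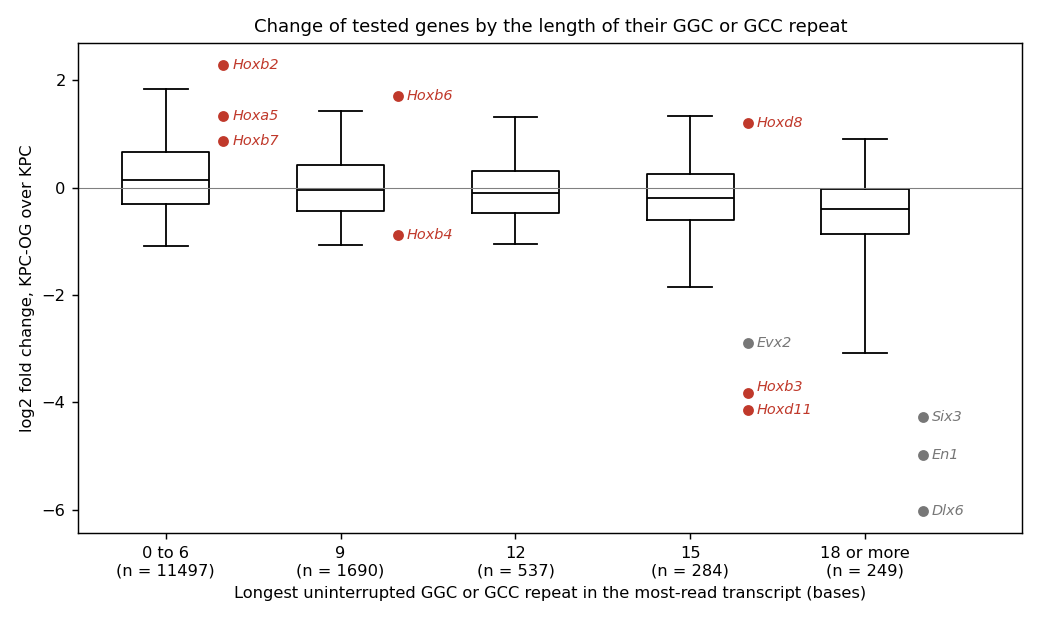
log2 fold change of tested genes, KPC-OG over KPC, by the longest uninterrupted GGC or GCC repeat of their most-read transcript. For 71.2% of tested genes the sequence had the same length as the transcript the authors quantified. Boxes are medians and quartiles of all tested genes in the bin with whiskers at the 5th and 95th percentiles, red points are Hox genes and grey points 4 other homeobox genes; the median is 0.14 in the bin with the shortest repeats and −0.40 in the bin with the longest.

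Across the bins of repeat length the share of genes called lower was 14.6%, 21.8%, 23.1%, 33.8% and 43.8%, from 6 bases or fewer to 18 or more. Hoxb3, Hoxd11 and Hoxd8 all have a repeat of 15 bases, with log2 fold changes of −3.82, −4.14 and 1.21. Hoxd8 was not called and its groups overlapped. Nothing is read from these members about repeat length, since the contrast chose them.

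Other patterning genes of the homeobox class were listed from textbook knowledge, with earlier results of these data known. Of 54 listed genes 10 were tested, and 5 were lower, 0 higher and 5 did not pass (edgeR adjusted p under 0.05). Among all tested genes 16.6% were lower and 17.4% higher, and nothing is read from the counts of this list. Dlx6, a forebrain and jaw gene, fell to 6.96 ± 9.31 CPM in KPC-OG, against 434.0 ± 88.1 CPM in KPC (adjusted p = 0.00255). En1, a midbrain gene, fell to 30.5 ± 18.2 CPM in KPC-OG, against 953 ± 221 CPM in KPC (adjusted p = 0.000442), and Six3, an eye and forebrain gene, to 9.65 ± 10.7 CPM, against 181 ± 34.8 CPM (adjusted p = 0.00479). These 3 genes are all known for the embryonic nervous system, and their most-read transcripts hold 10, 25 and 3 k-mers of only G and C. Without KPC-OG library 3 the log2 fold changes were −7.53 for Dlx6 and −5.32 for Six3, beside −6.02 and −4.27 with all libraries. Of 5 nerve and Schwann cell markers, which summed to 37.9 to 38.7 CPM in KPC-OG and 59.9 to 69.3 CPM in KPC, 4 were tested, 1 higher and 2 lower, and their part in these values was not tested. Evx2, the homeobox gene next to the posterior end of HoxD, fell to 0.441 ± 0.232 CPM in KPC-OG, against 3.15 ± 0.580 CPM in KPC (adjusted p = 0.00113). Its most-read transcript held no k-mer of only G and C, but a GGC or GCC repeat of 15 bases.

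Genes around the clusters gave no common direction. Of the 24 nearest protein-coding neighbours 21 were tested, 5 higher, 3 lower and 13 not passing, with a median log2 fold change of 0.02, beside 0.09 over all tested genes. Skap2, a signalling adaptor beside HoxA, rose by 0.84 ± 0.13 (log2, SE; edgeR adjusted p = 0.00154), and Nfe2l2, the oxidative stress regulator beside HoxD, rose by 0.98 ± 0.19 (adjusted p = 0.00380). Of 46 other genes annotated inside the clusters 5 were analysed here and 1 was tested. This was 5730596B20Rik, which overlaps Hoxa3 on the opposite strand and had 0.700 to 1.40 CPM in KPC-OG and no read in KPC. It passed the filter only through KPC-OG and could only be higher in CPM, so nothing is read from its call. Because strand is not stated, its reads and those of Hoxa3 cannot be told apart with certainty. In all, 12 members overlap another gene of the files, and 11 of them another member (Hoxa3 to Hoxa6, Hoxc5, Hoxc6, Hoxc8 to Hoxc10, Hoxd3 and Hoxd4), so reads could be split between them by estimation. Neither Hoxb3 nor Hoxd11 is among these.

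Most genes that act with Hox proteins did not pass the test. Of 8 tested TALE cofactors, which bind DNA together with Hox proteins, 0 were higher and 1 was lower: Pbx3 fell by 0.59 ± 0.20 (log2, SE; edgeR adjusted p = 0.0440), and this call was lost without KPC library 1 or 3 or any one KPC-OG library, with adjusted p up to 0.125. Meis2 had a log2 fold change of −0.40 ± 0.15 (adjusted p = 0.0689). With library sizes alone both were higher, by 1.15 for Pbx3 and 1.40 for Meis2, and re-centred on the median gene they were −0.67 and −0.43. The longest GGC or GCC repeat is 15 bases in the most-read transcript of Pbx3 and 9 in that of Meis2, and neither holds a k-mer of only G and C. Pdx1, the pancreatic ParaHox gene, had a log2 fold change of −0.26 ± 0.18 (adjusted p = 0.294) and was the only tested gene of its list.

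Of 18 tested Polycomb genes, 2 were higher, 1 was lower and 15 did not pass (edgeR). Suz12, a core subunit of the complex that methylates histone H3, fell by 0.76 ± 0.14 (log2, SE; adjusted p = 0.00254). Cbx8 rose by 1.32 ± 0.44 (adjusted p = 0.0412) and Phc2 by 0.46 ± 0.14 (adjusted p = 0.0286), but neither call held with fewer libraries. Cbx8 lost its call without KPC library 1, 3 or 4 or KPC-OG library 1, 2 or 4 (adjusted p up to 0.104), with log2 fold changes of 1.04 to 1.94, and Phc2 without KPC library 1, 2 or 4 or KPC-OG library 1 or 4 (up to 0.0899), with 0.36 to 0.53. Of 13 tested Trithorax and MLL genes, 1 was higher, 6 were lower and 6 did not pass. Among all tested genes 17.4% were higher and 16.6% lower. The 13 Trithorax and MLL genes had a median log2 fold change of −0.32. Among them, Ash1l fell by 0.63 ± 0.14 (adjusted p = 0.00702), the H3K27 demethylase gene Kdm6b by 0.73 ± 0.17 (adjusted p = 0.00909) and Dot1l by 0.67 ± 0.18 (adjusted p = 0.0179). Without KPC-OG library 2 the adjusted p of Dot1l was 0.0538. With library sizes alone Suz12, Ash1l, Kdm6b and Dot1l were each higher in KPC-OG, by 0.95, 1.09, 0.99 and 1.004 on the log2 scale. Re-centred on the median gene they were −0.87, −0.73, −0.84 and −0.82. The most-read transcripts of Suz12 and Kdm6b hold 17 and 15 k-mers of only G and C, and those of Ash1l and Dot1l hold 0. Of the 2 higher Polycomb genes, Phc2 holds 5 and Cbx8 holds 0. The part of base composition in these changes was not tested.

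In the retinoic acid pathway, an inducer of anterior Hox genes in embryos, the genes called were higher. Of 13 tested genes 4 were higher, 0 lower and 9 did not pass (edgeR), with a median log2 fold change of 0.87. Among all tested genes 17.4% were higher and 16.6% lower. Of those not passing, Rxra had a log2 fold change of −0.59 ± 0.21 (SE, edgeR adjusted p = 0.0537). Aldh1a3, which makes retinoic acid, rose to 25.6 ± 5.09 CPM in KPC-OG, against 4.56 ± 1.39 CPM in KPC (adjusted p = 0.000465). Rarg, a retinoic acid receptor gene, rose to 12.2 ± 1.70 CPM in KPC-OG, against 5.37 ± 1.41 CPM in KPC (adjusted p = 0.00229). Cyp26a1, which encodes an enzyme that breaks retinoic acid down, rose to 1.95 ± 1.40 CPM in KPC-OG, against 0.193 ± 0.244 CPM in KPC (adjusted p = 0.0191). Its KPC libraries had 0, 0, 0.265 and 0.507 CPM, near the limit of detection.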

How the data were processed

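Sailfish 0.6.3 (k-mers of 20 bases, 1000 iterations, bias correction) was run against Ensembl release 76 mouse cDNA, per the file headers. Per the submitters' processing notes, bcl2fastq, STAR 2.0.4b, edgeR and limma were also used, without their roles. The deposited estimated counts are fractional read numbers per transcript, per the file headers. The deposited TPM values are scaled per library by the authors' Sailfish run.

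Transcripts were mapped by identifier to GENCODE M21 (GRCm38): 83827 of 86127 matched, and the rest, 1.45% to 3.04% of reads in KPC-OG and 3.93% to 4.23% in KPC, were left out. Estimated counts were summed per gene and rounded. edgeR 4.0.16 in R 4.3.3 (robust quasi-likelihood, TMM, filterByExpr, Benjamini-Hochberg over all genes, threshold 0.05) was fitted to all 8 libraries, and was first tested on simulated data. A standard error is the log2 fold change over the root of F. DESeq2 1.42.0, limma 3.58.1, other scalings, filters, thinning and leaving out libraries were alternatives.

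Members and gene lists were chosen with earlier results of these data known. Values are given for all tested members, the 2 highest of each cluster by TPM, and, per list, up to 3 passing genes with the smallest adjusted p; further genes were named after their values were seen, and 1 gene is not reported here. No library pair was close enough to be a duplicate (chi-square per degree of freedom at least 14.7).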

Additional observations from a re-analysis of the deposited data

Results flagged for a closer look

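Of 65 sets of 4 libraries examined, 4 had a library far from the other 3, and chance alone sets apart about 1 in 20. 3 of these were library 3 of KPC-OG: Hoxb3-201 at 3.32 CPM, against 1.15 to 1.33 CPM in the other KPC-OG libraries, Dlx6 at 20.9 CPM, against 1.74 to 3.36 CPM, and Evx2 at 0.786 CPM, against 0.285 to 0.365 CPM. This library also had the highest Lars2 level of its group in CPM. Pdx1 was at 13.03 CPM in KPC-OG library 1, against 8.91 to 9.56 CPM in the others.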

How the results depend on the processing

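Scaling mattered most. Library sizes alone gave 13078 genes higher and 99 lower, and TPM with a pseudocount of 1 or 0.1 gave 12946 and 12898 higher and 125 and 123 lower, beside 2486 and 2373 with TMM; these move the median gene by 1.74, 1.35 and 1.58 (log2). Re-centred on the median gene, alternatives chosen after seeing the data, they gave 917, 984 and 586 higher, and 1400, 1605 and 1023 lower. Higher calls among Hox members, 1 with TMM, were 6 with library sizes alone, 5 with either TPM setting, and 0 after each re-centring and with limma-voom; it was also 0 with a mean of at least 1 CPM and after thinning, where 5 and 3 members were tested and Hoxb2 was not among them; lower calls, 3 with TMM, were 5 with no filter on low counts, where Hoxa11 and Hoxa13 were added. Leaving out single libraries gave 0 to 2 higher and 2 to 3 lower members, and 1689 to 2880 higher and 1705 to 2548 lower genes; Hoxb2 lost its call without KPC 1, KPC 2, KPC-OG 1 or KPC-OG 4, and Hoxb4 without KPC-OG 2. Hoxb3 and Hoxd11 kept their direction in every alternative run, and Hoxb2 in those that tested it, with 0.092 for re-centred TPM + 1.

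With library sizes, TPM + 1 and TPM + 0.1 these log2 fold changes reversed: Hoxb4 0.91, 0.46 and 0.67; Pbx3 1.15, 0.96 and 1.08; Meis2 1.40, 1.20 and 1.24; Pdx1 1.47, 1.03 and 1.29; Suz12 0.95, 0.85 and 0.94; Ash1l 1.09, 0.92 and 1.04; Kdm6b 0.99, 0.77 and 1.02; Dot1l 1.004, 0.90 and 1.13. All lie below the shift of the median gene, and re-centred these 8 were negative under all 3 settings. With re-centred TPM + 1, Hoxb6 was −0.43, Hoxd8 −0.017, Hoxa5 −0.11, Hoxb7 −0.31 and 5730596B20Rik −0.48; why was not tested. Deviations of libraries with the same replicate number correlated at 0.274, 0.275, 0.0385 and 0.0361, so the numbers were not taken to pair samples; 3 of 4 matched best with their own number. A replicate block gave 2477 higher and 2418 lower genes. Depth limits low members: 3 reads over a group equal 0.0249 CPM in KPC-OG and 0.148 CPM in KPC, counting error only.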
